A study of Mus musculus with 3 samples.

Results

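The 9 genes described here are 4 members of the BCL2 family (Bcl2, Bcl2l1, Mcl1 and Bcl2l11) and 5 genes of the inflammasome and of pyroptosis (Casp1, Casp4, Gsdmd, Nlrp3 and Pycard). They were taken by gene symbol, and each matched 1 of the 32285 genes in the count tables. Cells of the mouse cornea and limbus were profiled in 3 droplet libraries, each from 1 wild-type mouse: nitrogen mustard (NM) injury with losartan treatment, NM injury with saline treatment, and no injury. NM alkylates and crosslinks DNA. Losartan is an antagonist of the type I angiotensin receptor. All 3 libraries carry the wt genotype and no transgene is named. For the tissue, the anterior eye was dissected, with lens, retina, iris, trabecular meshwork and most conjunctiva taken off, and was digested with liberase and then trypsin. Age, sex, dose and time after injury are not given in the sources used here.

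BCL2-family proteins decide at the mitochondrion whether a cell enters apoptosis. Bcl2, Bcl2l1 (which encodes BCL-XL) and Mcl1 keep the membrane intact, and Bcl2l11 (which encodes BIM) is a BH3-only protein that binds and blocks them. Pyroptosis is a lytic, inflammatory death: a sensor such as Nlrp3 joins the adaptor Pycard (ASC) to activate Casp1, which cuts Gsdmd into a membrane pore and matures interleukin-1 cytokines. Casp4 is the mouse caspase of the non-canonical route, which responds to bacterial lipopolysaccharide inside the cell and also cuts Gsdmd. Most of these proteins are switched by binding or cleavage, which a count of transcripts does not show.

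After filtering, 4919 losartan cells, 5800 saline cells and 11233 uninjured cells held 84692338, 69582322 and 147077450 unique molecular identifiers (UMIs), with medians per cell of 6060, 4115 and 11672. The libraries shared 7 (losartan and saline), 28 (losartan and uninjured) and 21 (saline and uninjured) cell barcodes. Cells were clustered and each cluster was named from marker lists. The epithelial-like class held 1948 losartan, 1101 saline and 8944 uninjured cells, and all 15 epithelial markers were above 10 CPM (counts per 1000000) in each library. The stromal fibroblast-like class held 692, 685 and 396 cells, mostly from different clusters in each library. Of the clusters with a neutrophil score, cluster 1 (led by Ccl3 and Ccl4) had 0 neutrophil markers among its 10 top genes but had Lcn2, which is also a marker of secretory epithelium. Clusters 1 and 3 are therefore compared by number. Macrophage-like cells numbered 393 with losartan and 653 with saline, against 4 without injury, and dendritic-like cells 63, 93 and 0. A level is the sum of a gene's UMIs over the cells of a class, scaled to CPM by all UMIs of that class and library. Intervals are 95% and reflect counting error alone. Each group is 1 library, so there is no replicate check and no test across mice. A gene is counted as higher or lower when its ratio on CPM + 5 is at least 1.5-fold. Levels of different genes are not ranked against each other, since the counts are not scaled to length.

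Casp1 and Casp4 lie next to each other on the plus strand of chromosome 9 in GRCm38, with Casp1 at 5298517 to 5307265 and Casp4 at 5308828 to 5336783, 1562 bases apart. Nlrp3 lies on chromosome 11 at 59541568 to 59566956 (plus strand). The other members lie elsewhere: Bcl2 is on chromosome 1, Bcl2l1 and Bcl2l11 on 2, Mcl1 on 3, Pycard on 7 and Gsdmd on 15. These 3 are shown by their promoters because each was under 2 CPM in uninjured epithelium and stroma and was higher in leukocytes of the injured tissue. The sequences are the 250 bases before a RefSeq transcription start (GRCm38.p6, plus strand, 5′ to 3′). Of the 9 genes, 8 had a promoter entry. Capitals mark matches to the kappaB consensus or to the FOXO sequence GTAAACA on either strand.
Casp1 (chr9:5298267-5298516): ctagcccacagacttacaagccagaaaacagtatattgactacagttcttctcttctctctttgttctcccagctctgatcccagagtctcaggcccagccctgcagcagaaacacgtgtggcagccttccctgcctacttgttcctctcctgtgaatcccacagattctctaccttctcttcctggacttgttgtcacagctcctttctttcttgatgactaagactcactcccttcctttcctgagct
Casp4 (chr9:5308599-5308848): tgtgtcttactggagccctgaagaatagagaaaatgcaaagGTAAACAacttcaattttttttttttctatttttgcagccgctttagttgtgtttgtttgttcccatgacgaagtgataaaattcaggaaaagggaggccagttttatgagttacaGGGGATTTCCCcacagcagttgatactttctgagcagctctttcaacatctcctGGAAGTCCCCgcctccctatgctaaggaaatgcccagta
Nlrp3 (chr11:59541319-59541568): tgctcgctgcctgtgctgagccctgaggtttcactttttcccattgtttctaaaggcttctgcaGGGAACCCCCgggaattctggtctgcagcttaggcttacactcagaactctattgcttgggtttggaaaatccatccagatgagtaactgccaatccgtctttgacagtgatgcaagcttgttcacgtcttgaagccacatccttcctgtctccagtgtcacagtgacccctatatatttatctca

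The Casp4 window held 3 kappaB matches, which begin 93, 92 and 39 bases before the start, and the first 2 overlap. It also held 1 FOXO match, 209 bases before the start. The Nlrp3 window shown held 1 kappaB match at 186 bases, the other Nlrp3 window (chr11:59542436-59542685) held none, and the Casp1 window held none. Of the windows not shown, the second Casp4 window overlaps the first and holds the same matches, 1 of 3 Bcl2l1 windows held a kappaB match, and 1 of 2 Bcl2l11 windows held a FOXO match. Among all 32851 promoter windows of that length, 7.25% hold the kappaB consensus and 3.17% hold GTAAACA. Searches on both strands for the core of the interferon-stimulated response element (GAAA, any 2 bases, GAAA; 2.98% of windows) and for TGANTCA, the AP-1 sequence (6.75%), found no match in any of the 13 windows of the 8 genes. GGGCGG, the GC box, present in 32.7% of windows, occurred 7 times before Bcl2 (chromosome 1, minus strand). It occurred 3 times in the first and 2 times in the second Bcl2l11 window (chromosome 2, plus strand). The Mcl1 window (chromosome 3, plus strand) held 1. A match is a string of letters and not a measured binding site.

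**Figure D1:**
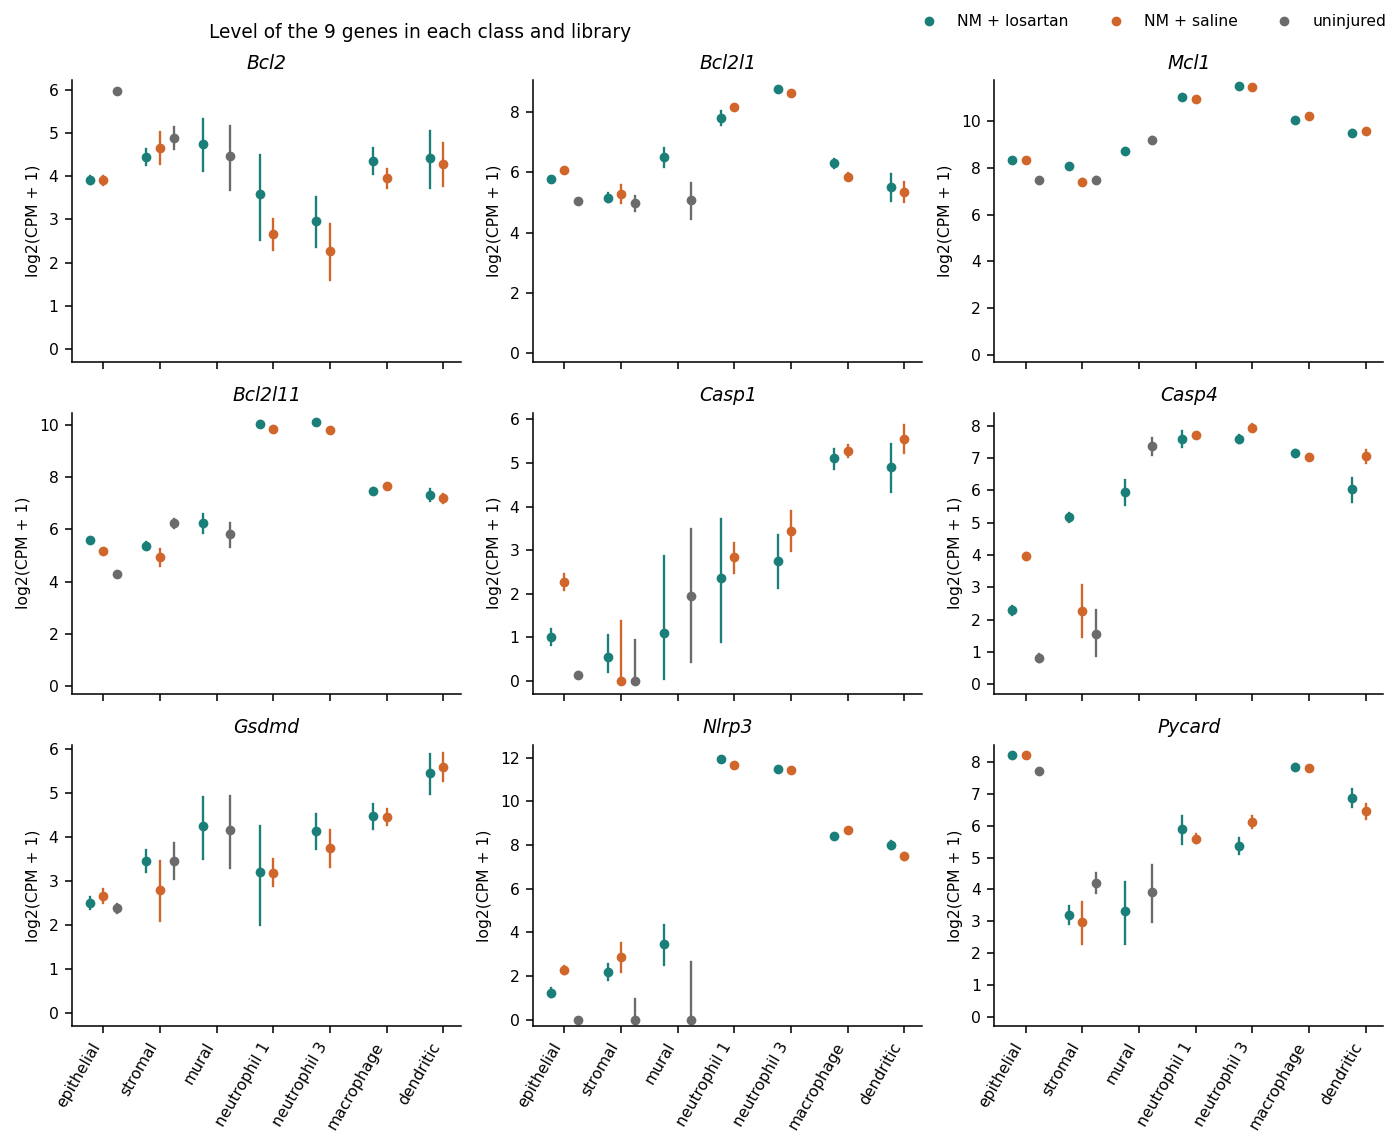
Level of each of the 9 genes, as log2(CPM + 1), in each class and library with at least 50 cells. Points are class sums and lines are 95% Poisson intervals, and neutrophil 1 and 3 are clusters compared by number. Nlrp3 lies near 0 in uninjured epithelium and is highest in neutrophils, while Bcl2 is highest in uninjured epithelium.

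Across classes, Nlrp3 marked the leukocytes. Its level was 3936 CPM in losartan and 3254 CPM in saline cells of neutrophil cluster 1, and 2911 and 2737 CPM in cluster 3. In macrophage-like cells it was 343 CPM with losartan and 412 CPM with saline, and in dendritic-like cells 258 and 179 CPM. In epithelial-like cells it was 1.37 CPM with losartan and 3.79 CPM with saline, against 0.00731 CPM, 1 UMI, without injury. The share of cells with an Nlrp3 UMI was 92.5% to 97.7% over the 4 neutrophil units, at median depths of 2586 to 3994 UMIs. In the epithelial-like class the share was 2.93% of losartan and 10.4% of saline cells, at median depths of 30037 and 12179 UMIs, against 1 of 8944 uninjured cells.

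Casp1 was highest in macrophage-like and dendritic-like cells. Macrophage-like cells held 33.5 CPM (28.3 to 39.3) with losartan and 38 CPM (34.3 to 41.9) with saline, and dendritic-like cells held 29 CPM (19.1 to 42.2) and 46 CPM (36.4 to 57.3). Both neutrophil clusters were at or under 9.93 CPM. In stroma there were 5 UMIs of Casp1, all in 1 losartan cell, and none in 685 saline or 396 uninjured cells. The sensor Nlrp3 and the caspase Casp1 were thus highest in different leukocyte units.

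Casp4 was present in every leukocyte unit and in mural-like cells. The neutrophil clusters held 190.2 to 245 CPM, macrophage-like cells 141 CPM with losartan and 129.9 CPM with saline, and dendritic-like cells 64.5 and 132 CPM. Gsdmd, the pore former, varied less between classes. Its level spanned 4.22 to 5.35 CPM in epithelial-like cells, 6.01 to 10.1 CPM in stroma and 43 to 47.7 CPM in dendritic-like cells, its highest unit.

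Pycard stood apart from the other inflammasome genes because its level in injured epithelium was above that in macrophage-like cells. It was 298 CPM (293 to 302) in losartan and 295 CPM (289.8 to 300.3) in saline epithelial-like cells, against 208 CPM (206 to 211) in uninjured ones. Macrophage-like cells held 231 and 222 CPM in the losartan and saline libraries, and neutrophil units 40.1 to 68.6 CPM. Stromal cells held 8.2 CPM in the losartan, 6.86 CPM in the saline and 17.5 CPM in the uninjured library. Those stromal values are 2.75%, 2.33% and 8.42% of the epithelial level in the same library, where the median epithelial marker in stroma stood at 1.04%, 1.72% and 2.67%. Pycard overlaps Gm45205 on the opposite strand, which is not among the genes of the count table.

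Of the BCL2 family, Bcl2l11 and Mcl1 were highest in neutrophils. Bcl2l11 held 1056 CPM in losartan and 913 CPM in saline cells of cluster 1, and 1121 and 899 CPM in cluster 3, against 179 and 199.5 CPM in macrophage-like cells. Mcl1, on which neutrophil survival is known to depend in mice, held 2111 and 1962 CPM in cluster 1 and 2913 and 2800 CPM in cluster 3. Bcl2l1 was also highest there, at 223 and 290.2 CPM in cluster 1 and 435 and 396 CPM in cluster 3. Bcl2 ran the other way, at 11 and 5.33 CPM in cluster 1 and 6.79 and 3.8 CPM in cluster 3. Its highest class level, 61.9 CPM, was in uninjured epithelium.

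In the epithelium the comparison of saline with uninjured cells asks what NM injury looked like under vehicle alone. Bcl2 was 14 CPM (12.9 to 15.2) in saline cells, against 61.9 CPM (60.6 to 63.2) in uninjured cells, a ratio of 0.227 (0.208 to 0.247). The other 3 BCL2 members were higher. Bcl2l1 was 66.2 CPM in saline cells, against 32.3 CPM in uninjured cells, a ratio of 2.05 (1.95 to 2.15). Mcl1 was 323 against 180.1 CPM (ratio 1.79, 1.75 to 1.83), and its antagonist Bcl2l11 34.8 against 18.9 CPM (ratio 1.84, 1.73 to 1.97). The survival genes therefore did not move as 1 group: Bcl2 was lower while Bcl2l1 and Mcl1 were higher. Injured and uninjured epithelial cells lay almost wholly in different clusters, so injury and cluster cannot be told apart in these values. Saline Bcl2l11 was 55.7 CPM in epithelial cluster 4, but 16.8 and 18.2 CPM in clusters 6 and 12. Saline Mcl1 was 249, 395 and 252 CPM in clusters 4, 6 and 12, and uninjured clusters ranged from 91.1 to 263 CPM.

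Counted at 1.5-fold, 3 of the 4 BCL2 members were higher and 1 was lower in saline than in uninjured epithelium, where 19.4% of 8710 measured genes were higher and 17.4% lower. Their median log2 ratio was 0.78, beside 0.01 over all measured genes. Of the 5 inflammasome members, Casp1, Casp4 and Nlrp3 were counted as higher and none as lower, with a median of 0.79. Only 2 of those 5, Casp4 and Pycard, reached 10 CPM in either library. With a pseudocount of 1 CPM in place of 5 the inflammasome median was 2.14, because 3 of the 5 genes sit near or below the pseudocount. Losartan epithelium set against uninjured epithelium also had 3 of 4 BCL2 members higher and Bcl2 lower (14.1 against 61.9 CPM), where 15.3% of 8504 genes were higher and 19.4% lower. Of the inflammasome members, Casp4 alone was counted as higher in that comparison. At 3.88 against 0.76 CPM it was under 10 CPM in both libraries, so it is not among those 8504 genes. Both comparisons use the uninjured library.

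**Figure D2:**
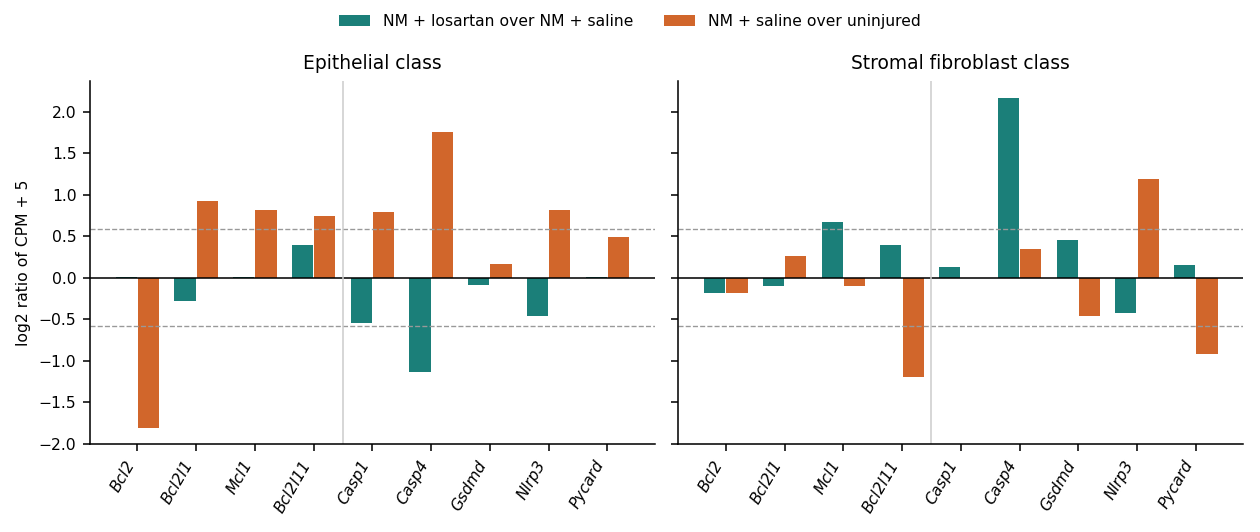
Log2 ratio of CPM + 5 for each gene in epithelial-like and stromal fibroblast-like cells, for losartan over saline and for saline over uninjured. Dashed lines mark 1.5-fold in each direction, and the vertical line separates BCL2 family (left) from inflammasome genes (right). In epithelium the losartan bars of the BCL2 genes stay between −0.28 and 0.40, and Casp4 is at −1.14.

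As class sums, losartan-treated and saline-treated epithelium were close for the BCL2 genes, though Bcl2l1 was past 1.5-fold within cluster 4 (described below). Bcl2 was 14.1 CPM in losartan and 14 CPM in saline cells (ratio 1.01, 0.904 to 1.12), and Mcl1 was 325 and 323 CPM (ratio 1.01, 0.986 to 1.03). Bcl2l11 was 47.4 against 34.8 CPM (ratio 1.36, 1.28 to 1.45) and Bcl2l1 53.5 against 66.2 CPM (ratio 0.808, 0.768 to 0.851), both within 1.5-fold. None of the 4 was counted as higher or lower, where 2.1% of 8064 genes were higher and 5.79% lower in losartan epithelium. Their median log2 ratio was 0.01, beside −0.07 over all measured genes.

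Casp4 was the single member past 1.5-fold between the injured epithelia as class sums. It was 3.88 CPM (3.4 to 4.41) in losartan cells and 14.6 CPM (13.4 to 15.8) in saline cells, against 0.76 CPM (0.621 to 0.921) in uninjured cells. The losartan to saline ratio was 0.267 (0.228 to 0.31). Casp1 (1.01 against 3.81 CPM, ratio 0.264, 0.193 to 0.357) and Nlrp3 (1.37 against 3.79 CPM, ratio 0.361, 0.274 to 0.475) were lower too, though class levels this small stay within 1.5-fold on CPM + 5. Within shared clusters, Nlrp3 was past 1.5-fold in cluster 4 (0.954 against 4.79 CPM) and in cluster 12, on 2 against 13 UMIs. Casp1 was past it in cluster 6 (1.2 against 5.83 CPM). Pycard was 298 and 295 CPM (ratio 1.01, 0.986 to 1.03) and Gsdmd 4.7 and 5.35 CPM (ratio 0.88, 0.736 to 1.05). The median of the 5 inflammasome members was −0.46 for losartan over saline, and −1.02 with a pseudocount of 1 CPM.

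Leukocytes were abundant in both injured libraries, so their free RNA could reach epithelial droplets, and its level was measured with marker genes. The 18 neutrophil markers summed to 271 CPM in losartan and 1036 CPM in saline epithelial-like cells, against 25.4 CPM in uninjured ones, where Retnlg, Mmp8, Clec4d, Acod1 and Trem1 were at 0. Most of the saline sum was Ltf (569.7 CPM) and Slpi (273 CPM), and Ltf, at 2193% of its cluster 3 level, is also a leading gene of epithelial cluster 6. The 18 macrophage markers summed to 1077 and 2023 CPM in the losartan and saline classes, against 408 CPM in the uninjured class, and Fcgr1 alone was at 0 there. Arg1 made up 882 CPM of the losartan and 1795 CPM of the saline sum. In epithelial-like cells the median of 18 macrophage markers stood at 0.0855% of the macrophage level with losartan and 0.122% with saline. The medians for neutrophil markers were 0.0733% (16 markers) and 0.171% (17 markers) of the cluster 3 level. Nlrp3 stood at 0.0471% and 0.139% of its cluster 3 level, within the spread of the neutrophil markers, where 5 of 16 and 7 of 17 markers were lower. Against macrophage-like cells Nlrp3 stood at 0.4% and 0.92%, above 13 of 18 markers in each library. The part of free RNA in its epithelial level was not tested beyond these values. Casp4 stood at 2.04% and 5.94% of the cluster 3 level and at 2.76% and 11.2% of the macrophage level, and Casp1 at 3.01% and 10.04% of the macrophage level. For both caspases 15 of the 18 macrophage markers were lower in each library and 3 were higher.

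**Figure D3:**
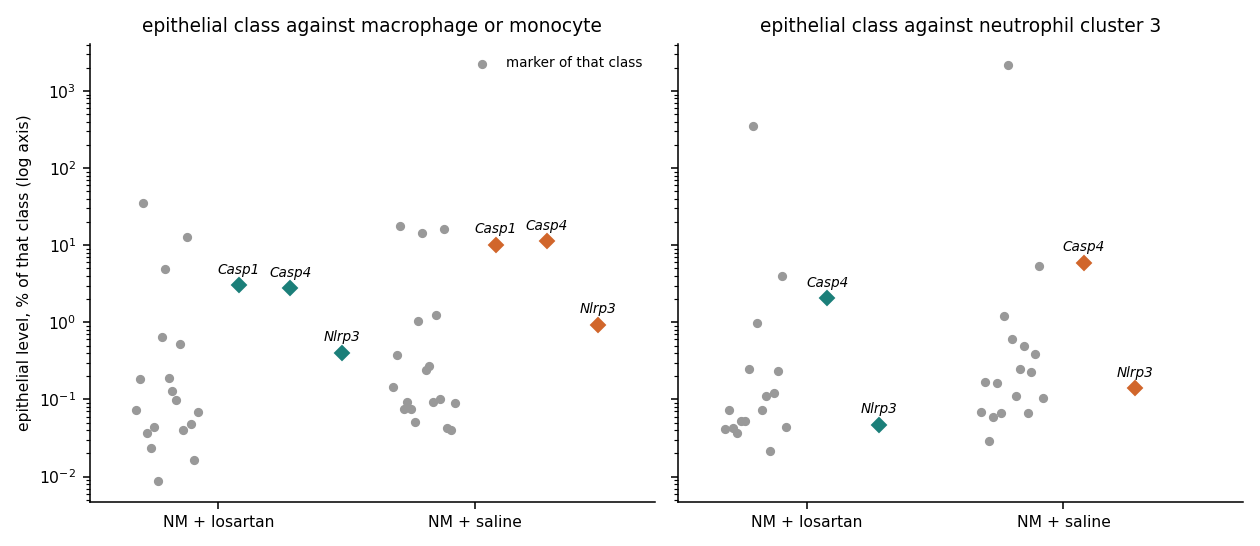
Level in epithelial-like cells as a percentage of the level in macrophage-like cells (left) or neutrophil cluster 3 (right) of the same library, on a log axis. Grey points are markers of that class with a level above 0 in epithelium, and diamonds are Casp1, Casp4 and Nlrp3 (Casp1 is left out on the right, where its source level is under 10 CPM). Casp4 lies above most markers in both libraries, and Nlrp3 lies among the neutrophil markers.

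Casp4 UMIs in the epithelium were seen in a minority of cells. In the saline library 230 of 1101 epithelial-like cells had a Casp4 UMI (20.9%, 18.5% to 23.4%), and 43 cells held 50% of all its UMIs. In the losartan library 147 of 1948 did (7.55%, 6.41% to 8.81%), and in the uninjured library 75 of 8944 (0.839%, 0.66% to 1.05%). The median depth of saline cells with a Casp4 UMI was 69496 UMIs, against 4456 UMIs for those without. In the uninjured library the medians were 16544 and 13620 UMIs. For a gene this low a deeper cell is more likely to show a UMI, so these depths cannot show which cells express it. After each cell was thinned to 1500 UMIs the share was 0.509% (0.233% to 0.964%) in losartan cells. It was 1.85% (1.06% to 2.98%) in saline and 0.103% (0.0471% to 0.196%) in uninjured cells. Thinning left out cells under 1500 UMIs, which were 9.19% of losartan, 21.3% of saline and 2.37% of uninjured cells. The summed level of 12 macrophage and neutrophil markers was 24.3 CPM in saline epithelial cells with a Casp4 UMI and 29.9 CPM in those without, and 13.8 and 10.2 CPM in the losartan library. Leaving out the tenth of cells with the highest share of those markers gave 3.99 CPM of Casp4 in losartan and 14.7 CPM in saline cells. The marker sum went from 10.7 to 4.61 CPM in losartan and from 27.3 to 20.8 CPM in saline cells. Most of it remained in the saline library, so this step cannot tell what free RNA adds to Casp4. Nlrp3 was then 0.898 CPM in losartan and 2.92 CPM in saline cells. For Nlrp3 the same markers were at 45.1 CPM in losartan epithelial cells with a UMI and 8.88 CPM in those without, and at 37.3 and 24.8 CPM in the saline library.

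The losartan and saline values of Casp4 differed the same way in each shared epithelial cluster. In cluster 4, led by Kcnq5 and Col18a1, Casp4 was 4.1 CPM (3.43 to 4.88) in losartan and 10.8 CPM (9.35 to 12.4) in saline cells. In cluster 6, led by the cornified-envelope genes Sprr2f and Sprr1a, it was 3.75 CPM (3.07 to 4.53) and 18.6 CPM (16.8 to 20.5). In the shallow cluster 12 there were 0 UMIs (0 to 4.37 CPM) in 341 losartan cells, and 8 UMIs or 5.82 CPM (2.51 to 11.5) in 439 saline cells, with overlapping intervals. Median depths in clusters 4 and 6 were 35033 and 36429 UMIs in the losartan library and 52426 and 55419 UMIs in the saline library, and the part of depth in the difference was not tested.

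Within the injured epithelium Bcl2, Bcl2l11 and Mcl1 differed more between clusters 4 and 6 than between treatments, while Bcl2l1 did not. Bcl2l11 was 73.4 CPM (70.4 to 76.4) in losartan and 55.7 CPM (52.4 to 59.1) in saline cells of cluster 4, and 19.2 CPM (17.6 to 20.9) and 16.8 CPM (15.1 to 18.7) in cluster 6. Bcl2 was 19.5 and 19.2 CPM in cluster 4, and 8.48 and 9.92 CPM in cluster 6. Mcl1 was 252 and 249 CPM in cluster 4, and 406 and 395 CPM in cluster 6. Bcl2l1 was 42.6 CPM in losartan and 69.2 CPM in saline cells of cluster 4, and 66.2 and 64.4 CPM in cluster 6. Pycard was 206 and 254 CPM in cluster 4, and 397 and 329.6 CPM in cluster 6. The cluster rich in Sprr genes thus had more Mcl1 and Pycard and less Bcl2 and Bcl2l11 than cluster 4 in both libraries. Most of this was also seen in the shallow cluster 12. There, in losartan and saline cells, Pycard was 397 and 334 CPM and Bcl2l11 21.3 and 18.2 CPM. Bcl2 was 3.55 and 5.09 CPM, on 3 and 7 UMIs, and Mcl1 313 and 252 CPM. Bcl2l11 and Casp4 were among the variable genes used to form the clusters and the other 7 were not.

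**Figure D4:**
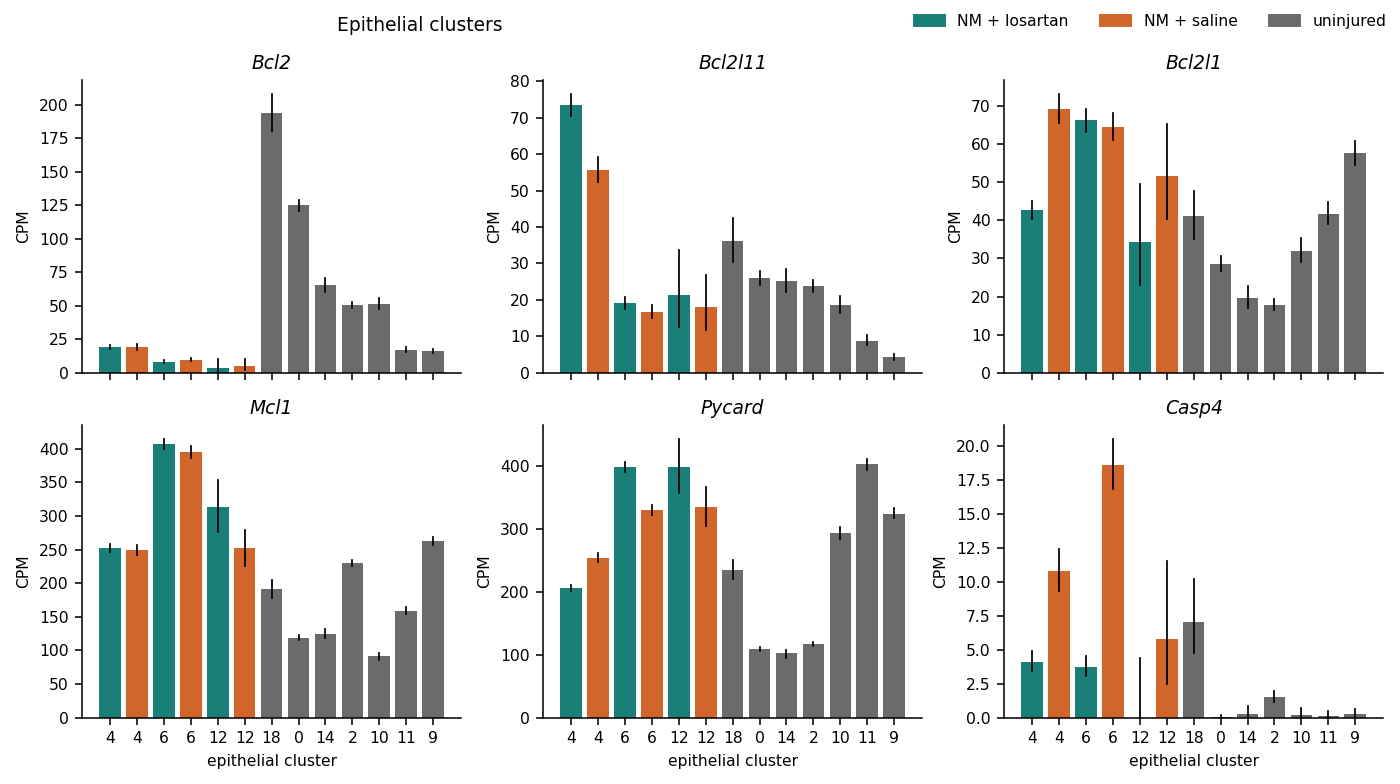
Level in CPM of 6 genes in each epithelial cluster, with 95% Poisson intervals, by library. Clusters 4, 6 and 12 hold the injured cells, and clusters 18, 0, 14, 2, 10, 11 and 9 the uninjured cells. Bcl2 is highest in clusters 18 and 0 and lowest among uninjured clusters in 9 and 11, where Pycard is at 324 and 402 CPM.

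In the uninjured epithelium, too, the clusters lowest in Bcl2 were those highest in Pycard. Bcl2 was 194 CPM (180.4 to 208) in cluster 18, led by Serpinb3a and the limbal gene Gpha2, and 125 CPM (121 to 129) in cluster 0, led by Frem2. It was 65.6 CPM in the cycling cluster 14 (led by Nusap1 and Top2a), 50.5 and 51.7 CPM in clusters 2 and 10, and 17.2 CPM (15.3 to 19.1) in cluster 11. In cluster 9, led by the surface genes Asprv1, Krt78 and Muc4, it was 16.3 CPM (14.7 to 18). Bcl2l11 followed a like order, from 36.1 CPM (30.5 to 42.4) in cluster 18 down to 8.87 CPM (7.57 to 10.3) in cluster 11 and 4.37 CPM (3.57 to 5.31) in cluster 9. Pycard was 109 CPM (106 to 113) in cluster 0, 102 CPM in cluster 14, 324 CPM (317 to 332) in cluster 9 and 402 CPM (393 to 411) in cluster 11, with cluster 18 between them at 235 CPM. Bcl2l1 ran from 17.9 CPM (16.6 to 19.3) in cluster 2 to 57.5 CPM (54.5 to 60.7) in cluster 9. Every injured cluster was below all but the 2 lowest uninjured clusters for Bcl2. Casp4 in uninjured epithelium came mainly from clusters 18 (29 UMIs, 7.08 CPM) and 2 (1.52 CPM), against 1 UMI in 3103 cells of cluster 0.

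Other genes of the same pathways were read from 7 lists, which also hold the members. For these counts 19.4% of all measured genes were higher and 17.4% lower in saline than in uninjured epithelium. In saline against uninjured epithelium, 5 of the 6 measured inflammatory caspases, gasdermins and their products were higher and none lower, with Il1b at 18.8 against 0.336 CPM, though Il1b is abundant in leukocytes. Of 8 measured death receptor genes 5 were higher and none lower, and of 12 effectors of mitochondrial apoptosis 5 were higher and 1 lower. Of 6 measured BH3-only genes 3 were higher and 1 lower, with Pmaip1 (NOXA), a p53 target, at 50.01 against 1.34 CPM. Bik, another BH3-only gene, was 12.2 against 25.5 CPM. Of 5 measured inhibitors of apoptosis none was higher and 2 were lower, with Birc2 at 8.5 against 24.1 CPM. Of 3 measured inflammasome sensors and adaptors 1 was higher and 1 lower, and the 3 measured anti-apoptotic relatives were Bcl2, Bcl2l1 and Mcl1 themselves. The pore-forming effector Bax was 212 CPM in losartan and 182 CPM in saline epithelium, against 54.2 CPM in uninjured epithelium.

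Between the injured epithelia few genes of the lists were past 1.5-fold, where 2.1% of all measured genes were higher and 5.79% lower. No death receptor gene (of 8 measured), inhibitor of apoptosis (of 4) or anti-apoptotic BCL2 relative (of 3) was past 1.5-fold in either direction. Of 7 measured BH3-only genes 1 was higher and 1 lower, of 11 effectors none was higher and 2 were lower, and of 3 sensors and adaptors none was higher and 1 was lower. The BH3-only gene Bbc3 (PUMA) was higher, at 19.1 CPM in losartan and 9.53 CPM in saline cells. Txnip, which can bind Nlrp3, was 28.5 CPM in losartan and 78.8 CPM in saline cells. Of 6 measured inflammatory caspases, gasdermins and their products none was higher and 2 were lower, with Il1b at 8.62 and 18.8 CPM. Il1b is abundant in leukocytes, and the part of free RNA in its epithelial level was not tested.

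In the stroma Casp4 had the largest ratio of losartan to saline among the members. Its level was 34.8 CPM (31.3 to 38.5) in losartan cells and 3.86 CPM (1.77 to 7.33) in saline cells, against 1.97 CPM (0.852 to 3.89) in uninjured cells. The ratio of losartan to saline was 9 (4.69 to 19.8), and of losartan to uninjured 17.6 (8.84 to 41.1). The losartan value came from cluster 17, led by Mmp3, Serpina3n and Timp1, which held 355 losartan cells but 15 saline and 2 uninjured cells. Casp4 was 37.3 CPM (33.6 to 41.4) there. In cluster 7, shared by both injured libraries, it was 2.8 CPM (0.339 to 10.1, 2 UMIs) in 311 losartan cells and 1.56 CPM (0.323 to 4.57, 3 UMIs) in 669 saline cells, a log2 ratio of 0.25. Treatment and cluster therefore cannot be told apart in the class value. Median depth was 26900 UMIs in cluster 17, and 2187 and 2769 UMIs in the losartan and saline cells of cluster 7.

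Leukocyte markers were measured beside stromal Casp4. In losartan stroma it stood at 24.7% of the macrophage level and 18.3% of the neutrophil cluster 3 level, above all 18 and all 16 markers. The neutrophil markers summed to 307 CPM in losartan and 377 CPM in saline stroma, against 99 CPM in uninjured stroma, and the macrophage markers to 264, 1868 and 785 CPM in that order of libraries. Apoe alone was 1588 CPM of the saline macrophage sum, and the median macrophage marker stood at 0.16% of its macrophage level in losartan and 0.559% in saline stroma. The 12 macrophage and neutrophil markers summed to 49.8 CPM in losartan stromal cells with a Casp4 UMI and 31.6 CPM in those without. Leaving out the tenth of cells richest in those markers gave 34.5 CPM of Casp4 in losartan and 4.15 CPM in saline stroma. The marker sum went from 38.5 to 20.7 CPM in losartan and from 112 to 65.4 CPM in saline stroma. Much of it remained, so this step cannot tell what free RNA adds to Casp4.

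**Figure D5:**
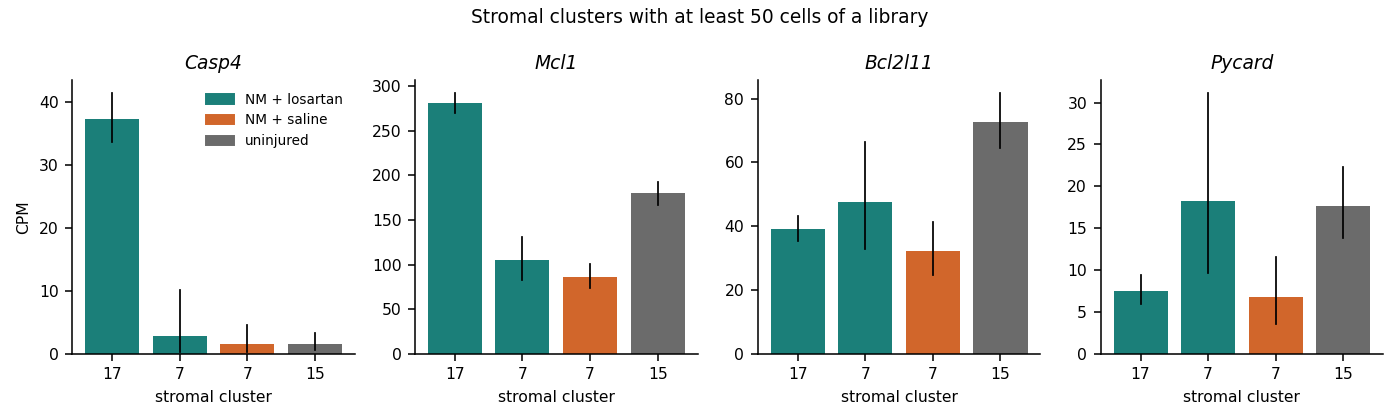
Level in CPM of 4 genes in the stromal clusters that hold at least 50 cells of a library, with 95% Poisson intervals. Cluster 17 is nearly all losartan cells, cluster 7 holds cells of both injured libraries and cluster 15 is nearly all uninjured cells. Casp4 reaches 37.3 CPM in cluster 17 and at most 2.8 CPM in the others.

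The remaining stromal members differed less. Mcl1 was 270.0 CPM in losartan and 168 CPM in saline cells, against 180.2 CPM in uninjured cells. In cluster 7 alone it was 105 CPM (82.5 to 131) in losartan and 86.5 CPM (73.9 to 101) in saline cells, with overlapping intervals, against 281 CPM (270.4 to 292) in cluster 17. With cells of 200 or more genes kept in place of 500, the Mcl1 log2 ratio of losartan over saline was −0.01, against 0.67. Bcl2l11 was 40.5 CPM in losartan and 29.6 CPM in saline cells, against 74.5 CPM in uninjured cells, a saline to uninjured ratio of 0.397 (0.301 to 0.517). Bcl2 was 20.8, 24.4 and 28.6 CPM and Bcl2l1 34.8, 37.7 and 30.6 CPM in losartan, saline and uninjured stroma, all within 1.5-fold of each other. Nlrp3 was 15 UMIs in saline cells (6.43 CPM) against 0 UMIs in uninjured cells (0 to 0.91 CPM). In saline stroma it stood at 0.235% of the neutrophil cluster 3 level, above 4 of 17 neutrophil markers. In the losartan library 1 cell held 50% of its 38 UMIs.

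For saline over uninjured stroma 0 of 4 BCL2 members were counted as higher and 1 as lower, and 1 of 5 inflammasome members as higher (Nlrp3) and 1 as lower (Pycard), where 12.9% of 9696 genes were higher and 36.1% lower. The group medians were −0.14 and 0.00, beside −0.39 over all measured genes, and the BCL2 median was 0.26 under median-of-ratios scaling. For losartan over saline 1 BCL2 member (Mcl1) and 1 inflammasome member (Casp4) were higher and none lower, where 34.4% of 9417 genes were higher and 17.8% lower. Both group medians were 0.15, beside 0.29 over all measured genes, and the BCL2 median was −0.18 under median-of-ratios scaling. For losartan over uninjured Bcl2l11 and Pycard were lower and Casp4 and Nlrp3 higher, where 16.4% of 9392 genes were higher and 22.7% lower. Nlrp3 was under 10 CPM in stroma of every library, so it is not among the genes of these shares. Of the other pathway genes, the death receptor Tnfrsf1a was 202 CPM in losartan and 40.7 CPM in saline stroma, and the inhibitor of apoptosis Birc3 102 and 19.3 CPM. Il1b was 8.48 CPM in losartan and 76.8 CPM in saline stroma, against 0 UMIs in uninjured stroma. The 12 macrophage and neutrophil markers summed to 38.5, 112 and 16.8 CPM in losartan, saline and uninjured stroma. Il1b is abundant in leukocytes, and the part of free RNA in its stromal level was not tested. Fas was 57.8 CPM in losartan stroma, against 7.4 CPM in uninjured stroma.

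Losartan and saline leukocytes had like levels of most members. In macrophage-like cells all 9 ratios lay within 1.5-fold, from Nlrp3 at 343 against 412 CPM (ratio 0.832, 0.784 to 0.882) to Bcl2l1 at 78.3 against 56.7 CPM (ratio 1.38, 1.2 to 1.58), where 5.88% of 7875 genes were higher and 4.46% lower. Interleukin-1 alpha (Il1a) was 143 against 411 CPM and the sensor gene Naip2 37.3 against 84.2 CPM in the same cells. In neutrophil cluster 1 only Bcl2 was past 1.5-fold, on 8 losartan UMIs (11 against 5.33 CPM, ratio 2.07, 0.844 to 4.42), where 8.2% of 6256 genes were higher and 13.2% lower. In neutrophil cluster 3 only Pycard was, at 40.1 CPM (33.2 to 48) in losartan and 68.6 CPM (60.1 to 78) in saline cells, where 21.8% of 6041 genes were higher and 4.72% lower. The median epithelial marker in cluster 3 stood at 3.91% of its epithelial level with losartan and 1.01% with saline. Bax was 91 against 40.3 CPM and Apaf1, the scaffold of the apoptosome, 43.1 against 18.1 CPM in that cluster.

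In dendritic-like cells Casp4 was 64.5 CPM (49.2 to 83) in losartan and 132 CPM (115 to 150.4) in saline cells, a ratio of 0.488 (0.361 to 0.652). It was the single member past 1.5-fold there, where 10.7% of 7538 genes were higher and 12.2% lower, and 12 of the 93 saline cells held 50% of its UMIs. Casp1 was 29 and 46 CPM (ratio 0.631, 0.392 to 0.988), Nlrp3 258 and 179 CPM (ratio 1.44, 1.21 to 1.72) and Pycard 116 and 86.7 CPM (ratio 1.34, 1.04 to 1.73). Casp4 was thus lower with losartan in epithelium and dendritic-like cells, higher in the stromal class, and within 1.5-fold in macrophage-like cells and both neutrophil clusters. The differences between classes were not tested.

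Mural-like cells, the contractile cells of small vessels, were numerous enough in 2 libraries. Their cluster, 19, scored almost as high for vascular endothelium (0.941) as for mural cells (0.981). Casp4 was 60.9 CPM (45.7 to 79.4) in losartan cells, against 163 CPM (135 to 196) in uninjured cells, with 6 cells holding 50% of its UMIs in each library. Bcl2l1 was 90.2 CPM (71.5 to 112) in losartan cells, against 32.6 CPM (20.7 to 49) in uninjured cells. Mcl1 was 423 against 587 CPM and Bcl2l11 74.4 against 55.3 CPM, both within 1.5-fold. Of the 9 members 2 (Bcl2l1 and Nlrp3) were counted as higher, Nlrp3 on 9 UMIs against 0, and 1 (Casp4) as lower, where 28.9% of 9988 genes were higher and 19.1% lower. The uninjured mural-like value was above the 0.76 CPM of uninjured epithelium and the 1.97 CPM of uninjured stroma.

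Across the 16 class and library units, the genes with the most similar profiles were found by Pearson's r of log2(CPM + 5), over 10713 genes and with the units sharing libraries and depth. Nlrp3 was closest to Pik3ap1 (r = 0.995), then to Clec4e and Tlr13 (0.99 each). Casp1 was closest to Ctss and Cd86 (0.97 each), and Casp4 to Rnf19b, Tbk1 and Litaf (0.94 each). Bcl2l11 was closest to Snx10 (0.98), Mcl1 to Rab20 and Mapkapk2 (0.98 each), and Bcl2l1 to 1600022D10Rik (0.98). Pycard was closest to Oasl1 (0.94) and Vamp8 (0.91), Gsdmd to Wnk1 and Crtc3 (0.94 each), and Bcl2 to Chd3 (0.91).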

How the data were processed

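The deposited values are whole-number UMI counts for each gene in each barcode, in 3 matrices that carry the Cell Ranger 8.0.0 version, per the file headers, on GRCm38 per the submitters' processing notes. The annotation, intron and strand settings and any doublet removal by the authors are not given in the sources used here. Positions are from GENCODE M 21 and promoters from RefSeq (GRCm38.p6). Bcl2 overlaps Mir3473f and Gm37053 on its own strand, and reads of these genes may not be told apart. It also overlaps D630008O14Rik on the opposite strand, which matters only if reads were counted without regard to strand.

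Cells with at least 500 genes and at most 20% mitochondrial UMIs passed, which removed 725 losartan, 680 saline and 703 uninjured barcodes of 5887, 6814 and 13270. Another 243, 334 and 1334 were removed as doublets by their score against simulated doublets, with the share removed set to grow with the number of barcodes. Counts scaled to 10000 per cell were reduced to 2000 variable genes and 30 components and clustered with Leiden (leidenalg 0.10.2) at resolution 0.8, without batch correction. Names came from marker lists. The score gap (0.1), the minimum score (0.3) and the exception for related classes were set after the clusters were seen. Unnamed clusters held 332, 154 and 1721 cells.

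Work was done in Python 3.11.15 with numpy 2.4.6, scipy 1.17.1 and pandas 2.3.3. Levels carry exact Poisson intervals, shares Clopper-Pearson intervals and ratios exact conditional binomial intervals. Measured genes had at least 10 CPM in either library. No p-value was computed, since each group is 1 library. The planned comparison of a neutrophil class was replaced by clusters 1 and 3. The calling of genes and the ratio intervals were tested on simulated Poisson counts of the epithelial profile. Genes as low as epithelial Casp1 and Nlrp3 were not among the changed ones. Clustering, naming, free RNA and variation between mice were not simulated. All 9 members are named. Other list genes are drawn from the 3 highest and 3 lowest past 1.5-fold per class and comparison (some are not reported here), with Bax named for every epithelial library, and the closest profiles are the top 3. The members and lists were chosen with earlier results of these data known. Alternatives were a pseudocount of 1 CPM, a minimum of 200 genes, doublets kept, median-of-ratios scaling, cells thinned to 1500 UMIs, resolution 0.4, members left out of clustering and equal weight per cell. Other subsets of cells were added after the data were seen.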

Additional observations from a re-analysis of the deposited data

Results flagged for a closer look

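Casp4 differed between losartan and saline in opposite directions by class. Its log2 ratio of losartan over saline was 2.17 in stromal fibroblast-like cells, −1.14 in epithelial-like cells and −0.98 in dendritic-like cells. The difference between the classes was not tested, and each value compares 1 losartan with 1 saline library. In the stromal cluster shared by both libraries the value was 0.25, on 2 losartan and 3 saline UMIs.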

How the results depend on the processing

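Over the alternatives, 111 of 126 recomputed group medians stayed close to the reported value and 15 moved. In epithelium, saline over uninjured, the BCL2 median was 0.84 with a pseudocount of 1 CPM, 0.57 with cells thinned to 1500 UMIs and 0.67 with equal weight per cell, and the inflammasome median was 2.14 with the pseudocount of 1. For losartan over saline the BCL2 median was 0.14 thinned and 0.13 with equal weights, and the inflammasome median −1.02 with the pseudocount of 1, −0.62 thinned and −0.24 with doublets kept. In stroma the BCL2 median for saline over uninjured, −0.14 as reported, took the other sign under median-of-ratios scaling, at 0.26, and was −0.56 thinned and −0.55 with equal weights. For losartan over saline it was −0.18 under that scaling, against 0.15 as reported, where the scaling set the centre of all genes at 0.37, and at −0.45 for saline over uninjured. The BCL2 median was 0.29 in thinned macrophage-like cells, and the inflammasome median was −0.54 in neutrophil cluster 3 under median-of-ratios scaling. Mcl1 in stroma, losartan over saline, was −0.01 with cells of 200 or more genes kept, against 0.67 as reported, and the cause was not tested. Of 567 recomputed ratios of single members, 468 stayed close, 98 moved and 1 reversed. Ratios of called members kept their sign in 147 of 149 cases and stayed past 1.5-fold in 138. Shares of cells with a UMI moved in 128 of 144 cases after thinning. At resolution 0.4 the neutrophil clusters joined (1385 losartan and 3061 saline cells), with medians of 0.31 for BCL2 and −0.19 for inflammasome members. No paired analysis was possible because each group has 1 library, and no replicate could be left out. Depth limits low genes: Casp1, Nlrp3 and Gsdmd in epithelium and stroma rest on few UMIs per cell.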
